A study of Mus musculus with 10 samples.

Results

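Peaks at 7 genes encoding transcription factors of the naive pluripotent state were followed over 8 TET2 ChIP-seq lists from mouse embryonic stem (ES) cells: Esrrb, Tfcp2l1, Tbx3, Nr5a2, Prdm14, Gbx2 and Nr0b1. A peak or region belonged to a gene where it overlapped the gene's protein-coding span, or lay within 50 kb of that span with no other protein-coding span nearer. Of 21883 protein-coding genes in the gene table these were 7, and they took 100 of the 79350 regions made by merging the peaks of all lists. All cells were grown in serum with LIF, the GSK-3 inhibitor CHIR99021 (3 µM) and the MEK inhibitor PD0325901 (1 µM). Wild-type cells (WT, genotype Tet2fl/fl, no tag) and Tet2KO cells (Tet2-/-, no tag) were immunoprecipitated with a rabbit polyclonal antibody to the TET2 N-terminus. FLAG-TET2 cells (Tet2fl/fl, with a 2x-Flag tag on the endogenous TET2) and untagged parental cells (Tet2fl/fl) were immunoprecipitated with FLAG M2 affinity gel. Each group had 2 libraries. WT and FLAG-TET2 lists are called target lists below, and Tet2KO and parental lists control lists, since those cells have no TET2 or no tag to precipitate. Whether a line was 1 clone, and whether replicates were separate cultures, is not in the labels, and replicate spread may therefore be technical. Peak lists hold no expression values, so the ES cell identity was not checked against marker genes.

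In the naive state, the self-renewal of mouse ES cells rests on a network of transcription factors fed by LIF signalling through STAT3 and by inhibition of GSK-3, which relieves repression by TCF7L1. Esrrb, Nr5a2 and Nr0b1 encode orphan nuclear receptors, and NR0B1 lacks the usual zinc-finger DNA-binding domain. Tfcp2l1 encodes a CP2-family factor, Tbx3 a T-box factor, Gbx2 a homeobox factor and Prdm14 a PR-domain zinc-finger protein that represses FGF signalling and the de novo DNA methyltransferases. TET2 oxidises methylated cytosine and has no CXXC DNA-binding domain of its own.

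The lists held between 2261 and 63612 peaks, and the depth behind them is not known here, so peak numbers mix binding with depth. The WT lists held 38546 and 18826 peaks in replicates 1 and 2, against 2261 and 11702 in Tet2KO. The FLAG-TET2 lists held 63612 and 28258 peaks, against 36549 and 10132 in the parental lists. At Tet2 itself, by the same assignment, there were 8 and 4 peaks in WT against 0 and 1 in Tet2KO, and 17 and 10 in FLAG-TET2 against 9 and 0 in the parental lists. These are binding peaks and do not check the deletion.

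TET2 regions were found at Esrrb, Tfcp2l1, Tbx3 and Prdm14, and not by the same criterion at Nr5a2, Gbx2 and Nr0b1. A region with a peak in all 4 target lists and in no control list is called a common region. The 7 genes held 13 common regions among their 100 regions (13%), where 5.7% of all merged regions were common. Esrrb had 5, Tfcp2l1 4, Tbx3 2 and Prdm14 2. At least 1 common region was found at 4 of the 7 genes (57.1%), against 17.3% of the 17165 genes that had any merged region. At least 2 were found at the same 4 genes, against 4.24% of those genes, at least 4 at Esrrb and Tfcp2l1, against 0.513%, and at least 5 at Esrrb, against 0.169%. The genes were picked with earlier results of these lists known, so these shares are a description and were not tested. Counting all regions together, the 7 genes held 1.16 regions per 10 kb of assigned sequence (863 kb in all) against 0.394 over all sequence within 50 kb of a protein-coding gene. For common regions the densities were 0.151 and 0.0233 per 10 kb.

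Of the 100 regions, 24 had a peak in all 4 target lists, where 15% of all merged regions had. Among those 24, 13 (54.2%) had no control peak, against 37.9% of the 11942 such regions over all genes. Regions with at least 1 control peak numbered 32, where the background was 50.7%. All 32 had a peak in parental replicate 1, as had 41.7% of all merged regions, and 22 had a peak in no other control list, where the share over all regions was 27%. Parental replicate 2 had a peak in 9 regions (11.6% of all merged regions) and Tet2KO replicate 2 in 5 (14.1%). Tet2KO replicate 1 had a peak in none (2.74%). Regions in a single list numbered 37. Of the 100 regions 33 were in a single target list and 4 in a single control list, against 22076 and 9354 of all 79350 merged regions. Of the 37, 29 were in FLAG-TET2 replicate 1, the longest list (21.5% of all merged regions were in that list alone).

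**Figure D1:**
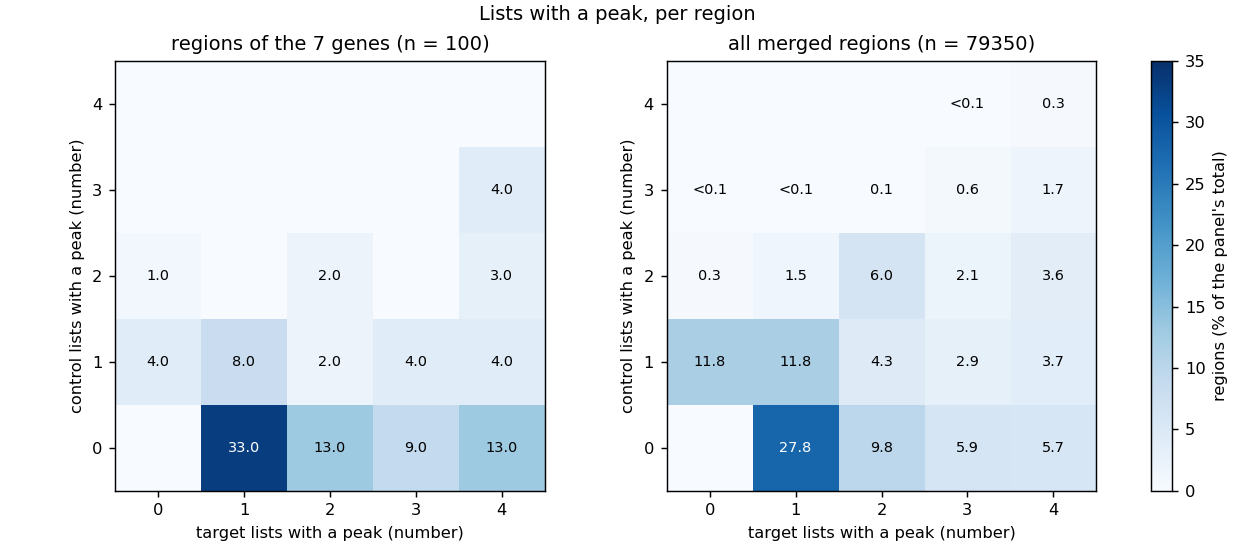
Share of regions (%) by the number of target lists (x axis) and control lists (y axis) that hold a peak, for the 100 regions of the 7 genes (left) and all 79350 merged regions (right). The bottom right cell of each panel is the common regions, 13% on the left and 5.7% on the right.

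The RefSeq table of promoter windows (GRCm38.p6, 250 bases before to 50 after a start site) held 7 windows for 5 of the genes, Esrrb and Nr5a2 with 2 each. The windows of Tfcp2l1, Nr5a2 and Nr0b1 that carried peaks in both reagents' target lists are shown here, with the inner Esrrb window, which carried no peak in any list. Capitals mark CG dinucleotides, the methylation sites that TET enzymes act on.
Tfcp2l1, chr1:118627695-118627994, plus strand: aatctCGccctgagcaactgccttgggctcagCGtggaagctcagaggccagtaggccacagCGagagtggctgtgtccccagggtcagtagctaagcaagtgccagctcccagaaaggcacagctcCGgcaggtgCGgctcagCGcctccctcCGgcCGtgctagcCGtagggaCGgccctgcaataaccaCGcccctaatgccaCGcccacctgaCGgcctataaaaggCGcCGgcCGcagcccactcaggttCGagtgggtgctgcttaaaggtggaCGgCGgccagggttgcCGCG
Nr5a2 (inner start site), chr1:136953581-136953880, minus strand: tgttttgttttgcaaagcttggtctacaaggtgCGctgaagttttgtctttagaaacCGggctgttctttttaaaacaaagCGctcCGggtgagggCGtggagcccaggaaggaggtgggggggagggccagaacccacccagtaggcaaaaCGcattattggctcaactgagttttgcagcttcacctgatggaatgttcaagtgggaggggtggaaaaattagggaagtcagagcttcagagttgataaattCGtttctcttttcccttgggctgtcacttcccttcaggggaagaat
Nr0b1, chrX:86191525-86191824, plus strand: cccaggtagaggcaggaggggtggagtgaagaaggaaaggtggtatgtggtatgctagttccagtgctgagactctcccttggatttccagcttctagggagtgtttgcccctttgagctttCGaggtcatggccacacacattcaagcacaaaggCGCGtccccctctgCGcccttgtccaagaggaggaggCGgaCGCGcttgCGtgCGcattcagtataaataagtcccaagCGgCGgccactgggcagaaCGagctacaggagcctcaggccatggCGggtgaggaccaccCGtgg
Esrrb (inner start site), chr12:86421394-86421693, plus strand: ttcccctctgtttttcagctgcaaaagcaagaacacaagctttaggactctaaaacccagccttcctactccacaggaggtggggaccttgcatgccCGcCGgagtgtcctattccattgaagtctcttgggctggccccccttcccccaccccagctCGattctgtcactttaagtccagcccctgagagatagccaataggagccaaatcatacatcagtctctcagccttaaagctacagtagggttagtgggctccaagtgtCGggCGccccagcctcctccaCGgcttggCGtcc

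The Tfcp2l1 window, with 21 CG dinucleotides, carried a peak in all 4 target lists and in parental replicate 1. Its summits lay at positions -24 and -17 from the start site in WT, 471 and 68 in FLAG-TET2 and 171 in parental replicate 1, so those with the FLAG resin lay past the window's end. The Nr5a2 window, with 7, carried a peak in WT replicate 1, with the summit at position -177, and in both FLAG-TET2 lists, at positions 697 and -109, and in no control list. The Nr0b1 window, with 14, carried a peak in WT replicate 1, with the summit at position -55 from the start site, and in FLAG-TET2 replicate 1, at position -85, and in no control list. The inner Esrrb window had 7 CG dinucleotides, as had the outer one, and neither of these nor the outer Nr5a2 window, with 2, had a peak in any list. In the Gbx2 window, with 27 CG dinucleotides, FLAG-TET2 replicate 1 alone had a peak, whose summit lay at position 209, past the window's end. The median over the 21262 promoter windows of protein-coding genes was 13. Across those windows a peak was present in 44.1% and 26.8% in WT against 3.21% and 15% in Tet2KO, and in 46.4% and 28% in FLAG-TET2 against 30.6% and 8.54% in parental replicates 1 and 2. Of the 7 windows 4 had a peak in some list, as had 53.1% of all windows. A peak in all 4 target lists and in no control list was found in 2.54% of all windows and in none of the 7. The binding motif shared by ESRRB and NR5A2, TCAAGGTCA, and its shorter form AAGGTCA, which the former contains, were searched on both strands. Neither occurred in the 7 windows (0.334% and 4.08% of all windows held them). Sequence outside the promoter windows, the common regions included, was not searched. The E-box CACGTG occurred in the Gbx2 window (7.84% of all windows).

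The number of peaks was higher on average in target than in control lists at each of the 7 genes. The share of all genes with a higher target mean was not computed. Each target list was also longer than the same-numbered control list of its antibody. The groups touched or overlapped at 6 of the 7 genes. Prdm14 was the exception, with 8 and 3 peaks in WT against 0 and 0 in Tet2KO, and 19 and 4 in FLAG-TET2 against 1 and 0 in parental replicates 1 and 2. Every target list was above every control list there, as at 6.19% of the 17178 genes with a peak. The mean difference (target minus control) was 8.25 peaks, 4.75 without FLAG-TET2 replicate 1 and 2 when peaks were counted within 10 kb of the gene. With each list shortened to its 2259 leading peaks the difference was 0 at Prdm14, Nr5a2, Gbx2 and Nr0b1. It was then 0.75 at Tbx3, 1 at Tfcp2l1 and 3.25 at Esrrb. A gene with no peak left in any shortened list was also given a difference of 0, and such genes were not told apart.

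Esrrb had 16 and 10 peaks in WT against 0 and 1 in Tet2KO, and 27 and 13 in FLAG-TET2 against 13 and 5 in the parental lists. Tbx3 had 16 and 12 peaks in WT against 0 and 3 in Tet2KO, and 23 and 12 in FLAG-TET2 against 14 and 3 in the parental lists. At both genes parental replicate 1 reached or passed a target list, and the mean differences were 11.8 and 10.8 peaks. Within 10 kb of the gene the difference at Tbx3 was 5.25. Tfcp2l1 had 12 and 7 peaks in WT against 0 and 1 in Tet2KO, and 16 and 11 in FLAG-TET2 against 7 and 2 in the parental lists. Its lowest target list equalled its highest control list, and the mean difference was 9 peaks.

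Nr5a2 had 3 and 1 peaks in WT against 0 and 0 in Tet2KO, and 7 and 4 in FLAG-TET2 against 2 and 0 in the parental lists. Nr0b1 had 2 and 0 peaks in WT, 0 and 0 in Tet2KO, 3 and 1 in FLAG-TET2 and 1 and 0 in the parental lists. Gbx2 had 2 and 0 peaks in WT, 0 and 0 in Tet2KO, 2 and 0 in FLAG-TET2 and 1 and 0 in the parental lists. These 3 genes had few peaks in any list, and the mean differences were 3.25 at Nr5a2, 1.25 at Nr0b1 and 0.75 at Gbx2. With peaks of −log10 q of at least 5 the difference was 1.75 at Nr5a2, where the exact permutation p was 0.333, and 0.25 at Gbx2. Gbx2 also had the least assigned sequence, 20 kb, since its neighbours lie close, against 244 kb for Esrrb. Without FLAG-TET2 replicate 1 the difference was 0.417 at Gbx2 and 0.75 at Nr0b1. It was likewise 0.417 at Gbx2 without WT replicate 1.

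Target and control labels were exchanged within each antibody in all 36 ways, and this two-sided exact permutation test gave p = 0.0556 for Tfcp2l1, Nr5a2 and Prdm14, which is the smallest p it can give. At the smallest p and higher in target lists were 12% of all genes with a peak. Esrrb and Tbx3 had p = 0.111, Nr0b1 0.333 and Gbx2 0.5 in the same exact test. Adjusted over 17178 genes (Benjamini-Hochberg) the p-values ran from 0.462 to 0.858. None of the 17178 genes passed 0.05, adjusted or not, because the smallest p lies above it. Whether the differences exceed the spread between replicates was thus not decided by this test.

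**Figure D2:**
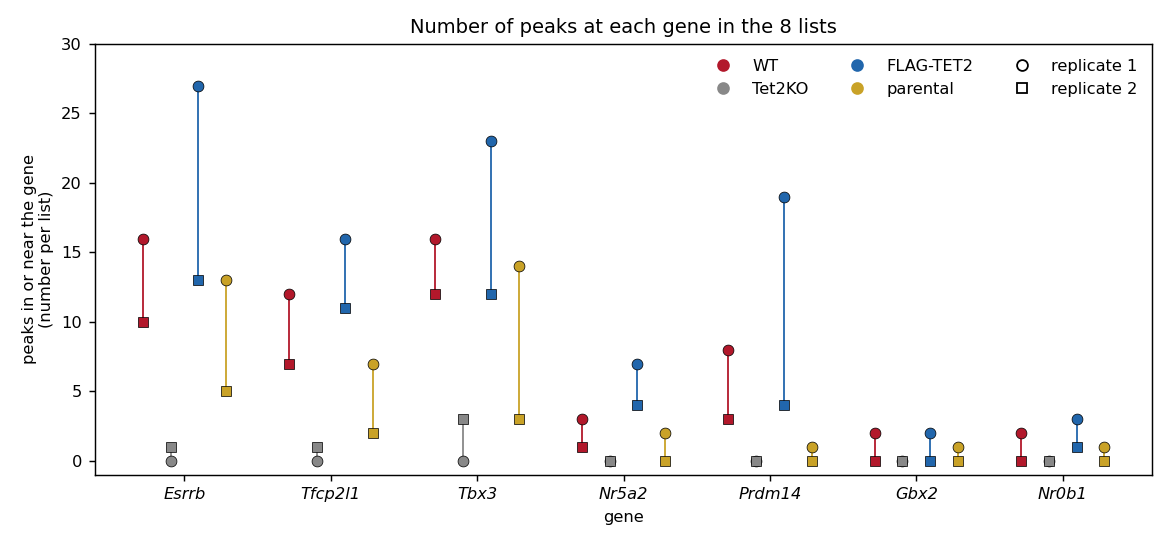
Number of peaks at each gene (y axis) in each of the 8 lists, by group (colour) and replicate (circle, 1, and square, 2), with a line joining the 2 lists of a group. Both Tet2KO lists sit between 0 and 3 at each gene, and parental replicate 1 reaches 13 at Esrrb and 14 at Tbx3.

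Relative to the length of its list, Prdm14 kept a gap between the groups and Esrrb did not with the FLAG resin. Per 10000 peaks of the list, Esrrb had 4.15 and 5.31 in WT against 0 and 0.855 in Tet2KO, but 4.25 and 4.6 in FLAG-TET2 against 3.56 and 4.94 in the parental lists. Tbx3 had 4.15 and 6.38 in WT against 0 and 2.57 in Tet2KO, and 3.62 and 4.25 in FLAG-TET2 against 3.83 and 2.96 in the parental lists. At both genes the FLAG-TET2 and parental lists overlapped on this scale. Prdm14 had 2.08 and 1.59 in WT against 0 and 0 in Tet2KO, and 2.99 and 1.42 in FLAG-TET2 against 0.274 and 0 in the parental lists. Tfcp2l1 had 3.11 and 3.72 in WT against 0 and 0.855 in Tet2KO, and 2.52 and 3.89 in FLAG-TET2 against 1.92 and 1.98 in the parental lists. At Prdm14 and Tfcp2l1 all target lists lay above all control lists per 10000 peaks. The share of all genes with such a separation on this scale was not computed, so how common it is remains unknown. With the peak number per 10000 peaks, the two-sided exact permutation p was 0.0556 for Tfcp2l1, Nr5a2 and Prdm14, 0.111 for Tbx3, 0.167 for Esrrb and Nr0b1 and 0.5 for Gbx2.

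Esrrb, a direct target of NANOG and of the GSK-3 and TCF7L1 axis, carried its TET2 regions inside the gene, toward the far end from its outer start site (chromosome 12, 86361117 to 86521628, mm10, plus strand). Of its 27 regions 24 lay in the gene span, and 9 had a peak in all 4 target lists. Of these, 8 fell within a stretch of 50 kb, and the remaining region lay 51.9 kb before it. Exons were not given in the gene table, so exonic and intronic positions were not told apart.

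Fold enrichment at the summit is the authors' value for each peak, and a percentile below is the rank of that fold among the list's peaks. A merged region can hold several peaks of a list, and then the highest fold is given. Peaks of different lists in a merged region need not overlap each other. Regions are ranked by −log10 q percentile, averaged over the target lists. The region of a gene ranked first among those in all 4 target lists is called its leading region. The common region of Esrrb with the highest rank lay at 86498547 to 86499225, 138 kb from the outer start site. Its authors' fold enrichments were 16.4 and 6.94 in WT replicates 1 and 2 and 22.4 and 7.21 in FLAG-TET2. The region at 86466161 to 86466656 had folds of 16.2 and 10.0 in WT and 15.1 and 8.22 in FLAG-TET2. That at 86455052 to 86455426 had folds of 9.29 and 7.82 in WT and 15.7 and 9.15 in FLAG-TET2. These 3 regions were above the median peak of each target list by fold, at percentiles between 62.1 and 96.3 within the lists. The region at 86497123 to 86497542 had folds of 11.1 and 4.76 in WT and 19.4 and 8.32 in FLAG-TET2. It was at the 15.6 percentile of WT replicate 2. The weakest, at 86402825 to 86403163, was centred at -18.65 kb from the inner start site, with folds between 4.17 and 5.92 and percentiles between 6.72 and 32.8.

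Of the 9 Esrrb regions in all 4 target lists, the 3 that ranked highest were not common regions, because each had control peaks. The leading region, at 86469988 to 86472373, had folds of 22.1 and 21.0 in WT with no Tet2KO peak, and 33.0 and 20.2 in FLAG-TET2 against 21.2 and 11.3 in the parental lists. It was at the 99.0 and 99.9 percentiles of the WT lists by fold, and at the 93.4 and 73.4 percentiles of the parental lists. The region at 86504242 to 86505081 had folds of 26.0 and 17.2 in WT with no Tet2KO peak, and 27.3 and 11.7 in FLAG-TET2 against 6.19 in parental replicate 1 and no peak in replicate 2. The region at 86501520 to 86502565 had folds of 23.5 and 15.5 in WT against 5.15 in Tet2KO replicate 2, and 25.5 and 12.6 in FLAG-TET2 against 6.48 and 6.31 in the parental lists. At these 3 regions the Tet2KO lists thus held 1 peak, at the 21.7 percentile of its list by fold. When only Tet2KO lists served as controls, which was tried after the data had been seen, Esrrb had 8 regions with a peak in all 4 target lists and no control peak, against 5 with all control lists. Without parental replicate 1 it had 7. Over all merged regions the share with this pattern was 10.6% with only the Tet2KO lists as controls and 9.21% without parental replicate 1, against 5.7% with all control lists.

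Outside the gene, 26.0 kb past its end, a region at 86547615 to 86548187 had FLAG-TET2 folds of 34.0 and 20.1 and parental folds of 35.3 and 24.1, with no peak in any TET2 antibody list. Tfcp2l1 had a region of the same kind, at 118728919 to 118729232 and 43.8 kb from its span, where FLAG-TET2 folds were 14.1 and 9.81 and parental folds 22.1 and 9.56. Peaks at both were thus present with the FLAG resin in cells without the tag. Over all genes, 3985 regions had this pattern (5.02%), against 2 of 100 here. A region 1.16 kb from the inner Esrrb start site, at 86422709 to 86422891, had a peak in the parental lists alone, with folds of 8.07 and 5.19.

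**Figure D3:**
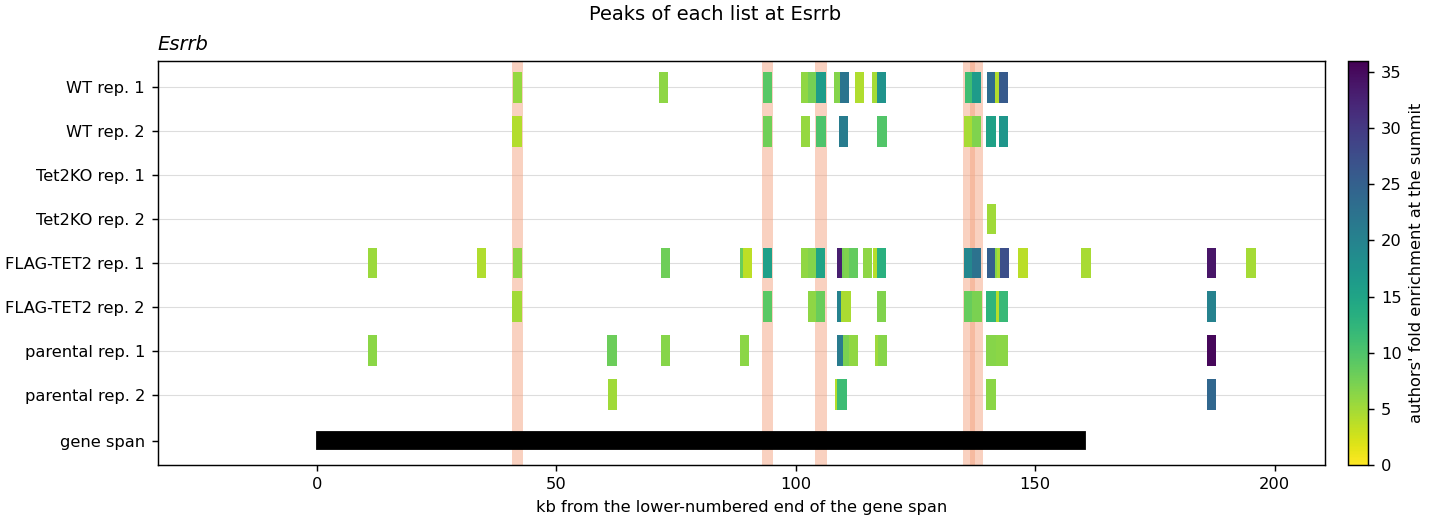
Peaks of each list (rows) at Esrrb by distance in kb from the outer start site, which is the lower-numbered end of the gene span (black bar); colour gives the authors' fold enrichment, narrow peaks are widened to be visible and shading marks the 5 common regions. The 3 darkest columns of target peaks within the span also have parental peaks, and the column past the gene has FLAG-TET2 and parental peaks only.

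Tfcp2l1, a factor downstream of LIF and STAT3 and of GSK-3 inhibition, had its regions in all 4 target lists within a stretch of 23.1 kb around its start site (chromosome 1, 118627923 to 118685168, plus strand). Of its 17 regions, 6 had a peak in all 4 target lists and 4 of these were common. A pair of common regions lay side by side just upstream, their edges 0.033 kb apart. The outer, at 118625366 to 118625945 and 1.98 kb from the gene, had folds of 12.8 and 8.01 in WT and 20.4 and 13.1 in FLAG-TET2. The inner, at 118625978 to 118626804 and 1.12 kb from the gene, had folds of 13.3 and 5.94 in WT and 8.81 and 8.22 in FLAG-TET2. The other two common regions lay inside the gene, 14.8 and 18.0 kb from the start site, with folds between 3.56 and 13.5.

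The leading Tfcp2l1 region, at 118647908 to 118648425 and 20.2 kb past the start site, had folds of 32.8 and 16.2 in WT against 6.01 in Tet2KO replicate 2, and 32.6 and 15.5 in FLAG-TET2 against 7.59 in parental replicate 1. It had no peak in Tet2KO replicate 1 or parental replicate 2. By fold it stood at the 99.9 and 99.0 percentiles of the WT lists and the 98.1 and 92.9 percentiles of the FLAG-TET2 lists, against the 42.9 percentile of Tet2KO replicate 2 and the 56.6 percentile of parental replicate 1. The region over the start site, at 118627782 to 118628861, whose promoter sequence is printed above, had lower folds. They were 7.65 and 4.69 in WT, with no Tet2KO peak, and 6.61 and 6.46 in FLAG-TET2 against 7.37 and 4.19 in the parental lists. The parental replicate 2 peak in this region did not overlap the WT replicate 2 peak, but it overlapped a peak of each FLAG-TET2 list. A parental replicate 1 peak did overlap the WT replicate 2 peak. The summits of the target lists in the region over the start site lay up to 495 bases apart. They lay 46 to 63 bases apart at 3 of the 4 common regions and 284 bases at the common region 14.8 kb from the start site. A region at 118689968 to 118690199, 4.8 kb from the gene, was in both WT lists alone, where its folds were 6.84 and 4.28.

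Regions outside the gene span numbered 17 of 18 at Prdm14 (chromosome 1, 13113428 to 13127163). They numbered 3 of 27 at Esrrb, 8 of 17 at Tfcp2l1 and 14 of 24 at Tbx3. The span took 13.7 of 69.7 kb of assigned sequence at Prdm14 and 14.2 of 114 kb at Tbx3. It took 161 of 244 kb at Esrrb and 57.2 of 116 kb at Tfcp2l1. Of the 17 Prdm14 regions outside the span, 16 lay on the side of the lower-numbered end, between 8.99 and 43.5 kb from the span, toward Slco5a1. Control peaks were rare: 1 of the 18 regions had one, at 13070939 to 13071312, with a fold of 4.42 in FLAG-TET2 replicate 1 and 6.18 in parental replicate 1. The common region at 13084602 to 13085445, 28.0 kb from the span, had folds of 9.64 and 5.83 in WT and 14.6 and 11.6 in FLAG-TET2. That at 13076242 to 13076630, 36.8 kb away, had folds of 8.06 and 5.98 in WT and 10.3 and 6.62 in FLAG-TET2.

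The lists differed in how much of this stretch they held. FLAG-TET2 replicate 1 had a peak in all 18 Prdm14 regions and was alone in 9 of them, WT replicate 1 had a peak in 8, FLAG-TET2 replicate 2 in 4 and WT replicate 2 in 3. A region 0.797 kb from the other end of the gene, at 13127960 to 13128361, had folds of 9.54 in WT replicate 1 and 11.6 and 5.67 in FLAG-TET2 and missed being common only for want of a peak in WT replicate 2. Without WT replicate 2 there were 4 common regions at Prdm14, and without FLAG-TET2 replicate 2 there were 3. Leaving out a target list loosens the rule, and the share over all merged regions was then 9.44% and 7.82%, against 5.7% with all lists. The 50 kb limit also bore on this gene. Just outside it, 53.2 kb from the span, a further region had folds of 9.66 and 7.19 in WT and 14.8 and 5.77 in FLAG-TET2 and no control peak. It was the only 1 of the 9 regions between 51 and 58.9 kb from the 7 genes to be common, and of the 9 regions between 41.5 and 48.6 kb none was.

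Tbx3, a T-box factor that supports self-renewal, had 24 regions, 6 of them with a peak in all 4 target lists (chromosome 5, 119670534 to 119684724). Only 2 were common. That at 119681805 to 119682210, inside the gene, had folds of 13.6 and 4.92 in WT and 6.61 and 5.99 in FLAG-TET2. That at 119657410 to 119657625, 12.9 kb from the gene, had folds of 10.5 and 7.39 in WT and 10.2 and 4.92 in FLAG-TET2. Without FLAG-TET2 replicate 2 there were 4 common regions, while the share over all merged regions was 7.82% against 5.7% with all lists.

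Regions with control peaks at Tbx3 were among the most widely shared of the 7 genes. Those at 119669848 to 119671862, over an end of the gene, at 119679686 to 119681603, inside it, and at 119709771 to 119710439, 25.0 kb away, each had a peak in all 4 target lists and in 3 control lists. The inner of these had folds of 16.4 and 8.34 in WT against 5.35 in Tet2KO replicate 2, and 22.3 and 7.9 in FLAG-TET2 against 12.7 and 4.76 in the parental lists. Not all of these peaks lay at the same position. In the inner region the parental replicate 2 peak overlapped no WT replicate 2 peak, and the same held in the region over the gene end. In both regions, however, the parental replicate 2 peak overlapped a peak of each FLAG-TET2 list. Tet2KO replicate 2 and parental replicate 1 each had a peak overlapping a WT replicate 2 peak in both regions. The leading Tbx3 region, 35.9 kb from the gene at 119720592 to 119721280, had folds of 13.3 and 9.58 in WT with no Tet2KO peak, and 19.3 and 12.2 in FLAG-TET2 against 6.79 in parental replicate 1.

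**Figure D4:**
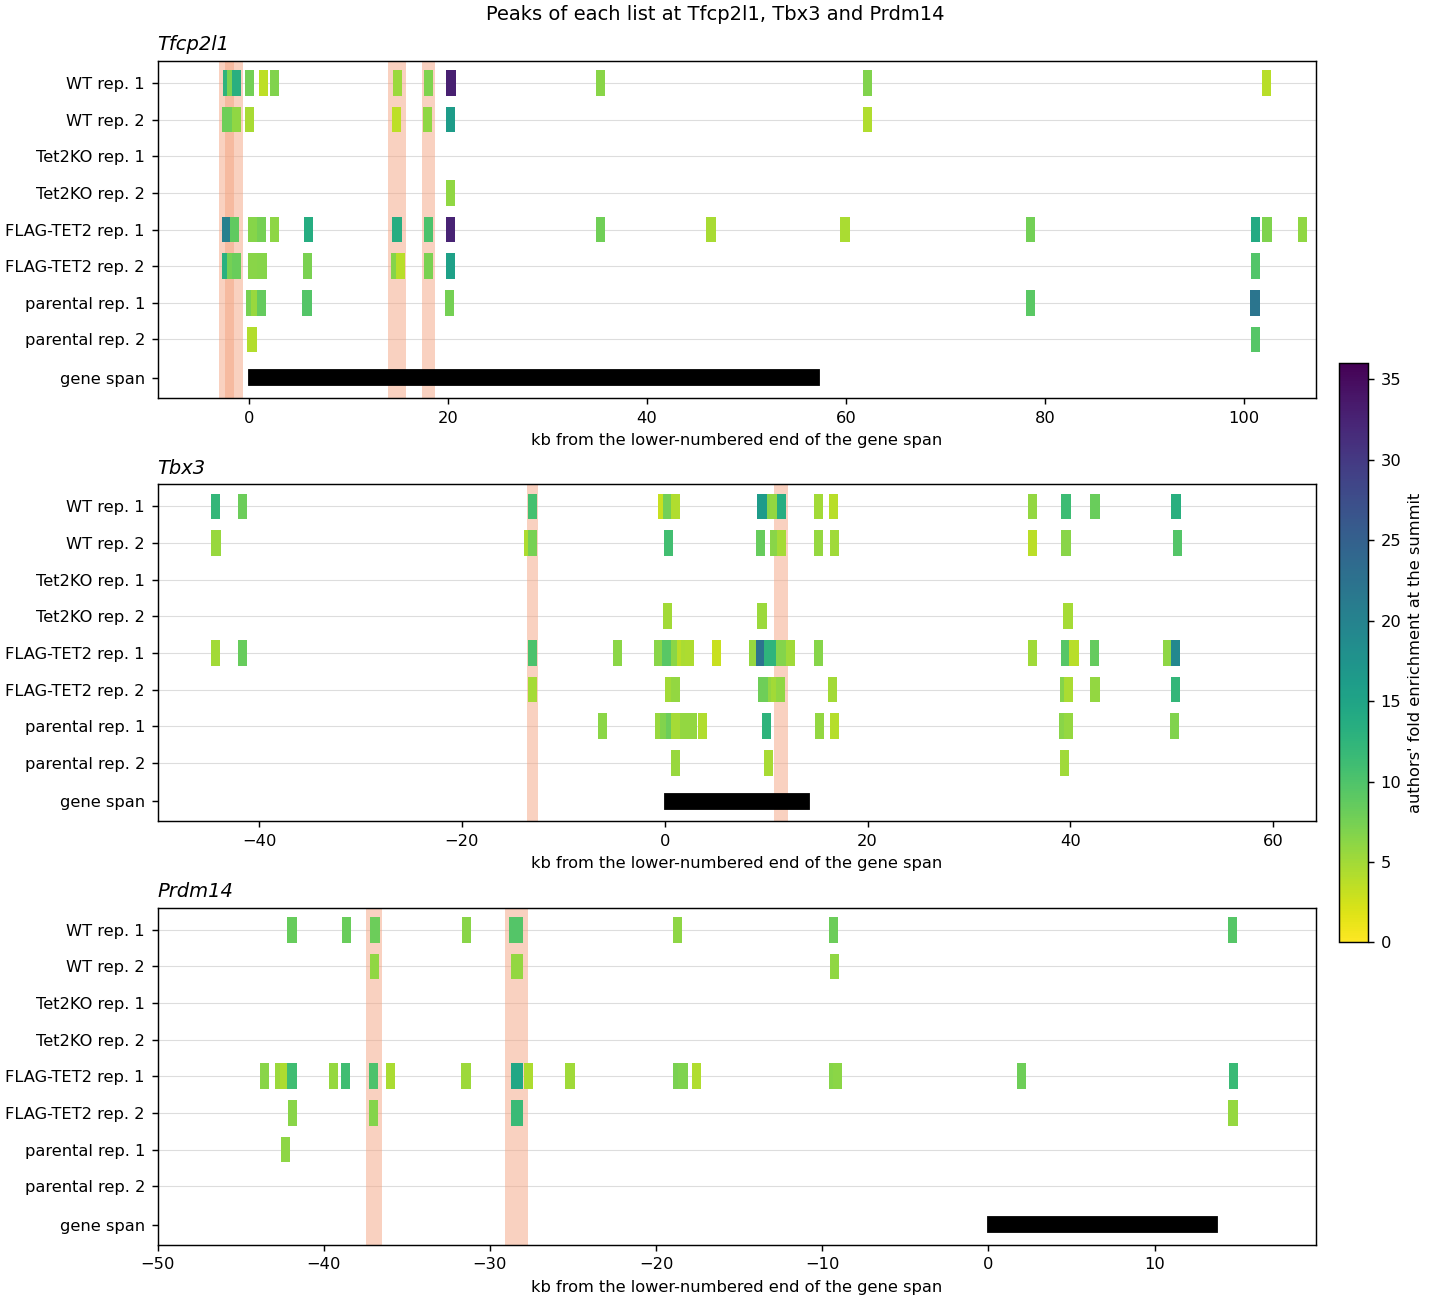
Peaks of each list (rows) at Tfcp2l1, Tbx3 and Prdm14 by distance in kb from the lower-numbered end of the gene span (black bar); colour gives the authors' fold enrichment, narrow peaks are widened to be visible and shading marks the common regions (4, 2 and 2). At Prdm14 both Tet2KO rows and the parental replicate 2 row are empty.

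Nr5a2, which encodes an orphan receptor that binds regulatory sequence of Pou5f1, had 7 regions and no common region (chromosome 1, 136842562 to 136960448, minus strand). Its single region in all 4 target lists lay over the inner start site, at 136952733 to 136953984. Its folds were 9.49 and 4.69 in WT with no Tet2KO peak, and 11.3 and 8.22 in FLAG-TET2 against 5.87 in parental replicate 1. The parental peak lay outside the promoter window printed above, as did the WT replicate 2 peak, and it overlapped a peak of each target list. The target summits lay 880 bases apart. Without parental replicate 1 the region was common, as were 9.21% of all merged regions, against 5.7% with all lists. A neighbouring region, 2.13 kb past the inner start site, had folds of 6.4 in WT replicate 1 and 4.53 and 4.37 in FLAG-TET2, with no control peak. Of the 7 regions 6 lay in the gene span, all within 4.44 kb of the inner start site.

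Nr0b1, an X-linked gene (X chromosome, 86191775 to 86195947, plus strand), had 4 regions and Gbx2, a STAT3 target (chromosome 1, 89927962 to 89931176, minus strand), had 3. No region of either was in all 4 target lists. The Nr0b1 promoter region, at 86191575 to 86191812, had folds of 3.76 in WT replicate 1 and 4.96 in FLAG-TET2 replicate 1. A region 4.23 kb from the gene had folds of 5.82 in WT replicate 1 and 11.8 in FLAG-TET2 replicate 1. Inside Nr0b1, a region at 86193472 to 86193869 was in both FLAG-TET2 lists alone, with folds of 8.36 and 7.19, and another, at 86192141 to 86192397, was in parental replicate 1 alone, with a fold of 5.42. At Gbx2, a region 0.449 kb from the gene had folds of 6.65 in WT replicate 1 and 4.14 in FLAG-TET2 replicate 1, and one over the start site had folds of 6.28 in FLAG-TET2 replicate 1 and 5.54 in parental replicate 1. Replicate 2 of WT had no peak at either gene.

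Of the 13 common regions, 8 lay in gene spans and 5 in flanks, and of all 4521 common regions 2365 lay in spans. At the 13, the summits of the 4 target lists lay a median of 63 bases apart, and within 100 bases in 10 regions. Shares over all common regions were not computed for summit distance or for nearness to a gene end. None of the 13 was within 1 kb of a gene end. Their folds in the target lists ran from 3.56 to 22.4, and their fold percentiles within the lists from 2.52 to 96.3, with a median of 74.1. The 11 regions in all 4 target lists that also had a control peak were wider, with a median of 1046 bases against 420 for the common regions. The same medians over all genes were 878 and 434 bases. The 11 had folds in the target lists of 4.69 to 33.0 and a median fold percentile of 88.9. The 9 regions with peaks in 3 target lists and no control list had a median fold percentile of 45.2, and the 33 regions in a single target list one of 13.2. Regions were grouped by the lists that called them, so percentiles and merged widths are not independent of the grouping. The order of the percentiles was not tested.

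**Figure D5:**
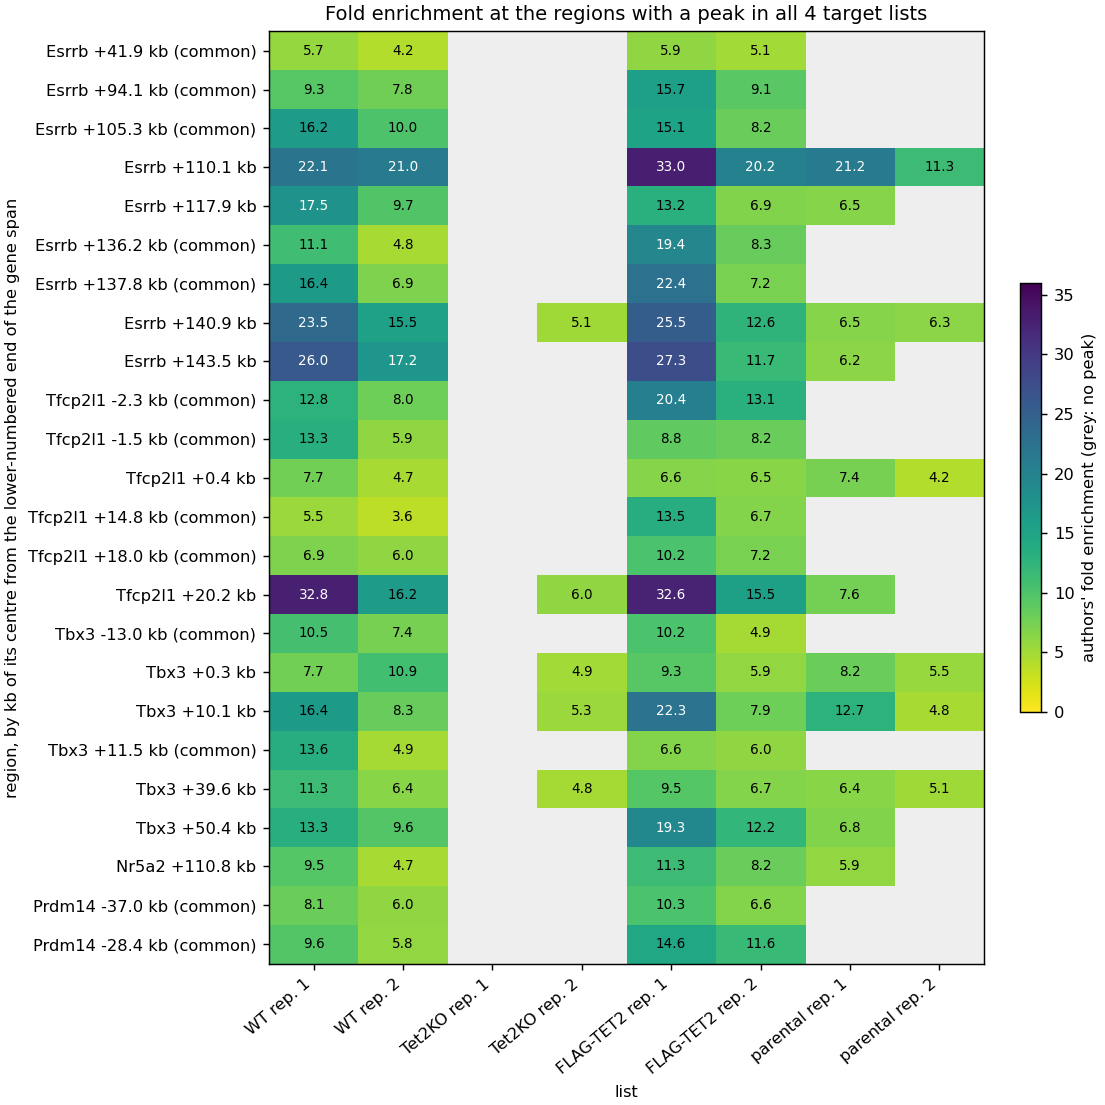
Authors' fold enrichment in each list (columns) at the 24 regions with a peak in all 4 target lists (rows, by gene and distance of the region's centre from the lower-numbered end of the gene span); grey marks lists with no peak. Tet2KO replicate 1 has none, and the highest WT and FLAG-TET2 folds of Esrrb and Tfcp2l1 stand in rows that also have parental peaks.

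The rest of the naive network, taken from lists written with earlier results known, and a list of fibroblast genes had common regions at shares above the 17.3% of all genes with a region. Of 5 genes of the LIF arm, 3 had a common region: Lifr, Il6st and Socs3, which had 7. Jak1 and Stat3 had none. Of 4 genes of the GSK-3 and WNT arm, Gsk3b and Tcf7l1 had common regions, 1 and 5, and Ctnnb1 and Axin2 none. Of 9 partner factors, 6 had one: Pou5f1, Sox2, Klf2, Klf5, Sall4 and Mycn, with Nanog, Klf4 and Zfp42 at none. Of 6 other naive-state genes, 4 had one (Dppa3, Dppa5a, Tcl1 and Jam2). Among 10 fibroblast genes, which would mark feeder cells and were taken as genes of another cell type, 4 had one (Col3a1, Fn1, Vim and Loxl1), of the 8 with any region. The median number of regions per gene was 17 for the 7 factors, 5 for the LIF arm, 9.5 for the GSK-3 and WNT arm, 13 for the partner factors and 11 for the other naive-state genes. It was 3 for the fibroblast genes, with 2 genes at 0 counted in, and 3 over all genes with a region. No difference between the lists was tested.

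Among the 2405 other genes with at least 20 peaks, those whose peak numbers over the 8 lists were divided most like the summed numbers of the 7 factors were Dlgap4, Lemd1 and Ryr2. Their Euclidean distances were 0.0132, 0.026 and 0.0261, against a median of 0.139 over the compared genes. Dlgap4 had 11 and 6 peaks in WT against 0 and 1 in Tet2KO, and 18 and 9 in FLAG-TET2 against 7 and 2 in the parental lists. The summed numbers of the 7 factors were 59 and 33 in WT against 0 and 5 in Tet2KO, and 97 and 45 in FLAG-TET2 against 39 and 10 in the parental lists. Dlgap4 had 3 common regions, Lemd1 2 and Ryr2 1.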

How the data were processed

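TET2 ChIP-seq peak lists of 8 libraries, 2 in each of 4 groups, were analysed; the input and IgG samples were not used here. Crosslinking used formaldehyde after disuccinimidyl glutarate, and chromatin was sheared to 200 to 500 bp, per the labels' protocols. Per the submitters' processing notes, the build was mm10 and the tools were MACS2, Bowtie2, Trimmomatic, DESeq2 and DiffBind, whose versions and roles are not given there. Each deposited list holds the peaks of 1 library, so peaks were called per library. The deposited lists give the authors' fold enrichment at the summit (as a ratio), its −log10 q and −log10 p values, a whole-number score and the summit offset. The lowest −log10 q was 2.01. Folds and −log10 q values were used to describe and rank peaks within a list. Read depth was not given in the sources used here, so no counting interval could be set.

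Peaks on 21 assembled chromosomes that overlapped by 1 bp or more were merged. Gene spans came from RefSeq for GRCm38.p6, which mm10 represents. All 7 symbols matched. The table has no strand or exons, so strand came from the promoter table where it had the gene. No genome sequence was used. Peak numbers were tested for all 17178 genes with a peak by a two-sided exact permutation test within antibody, adjusted by Benjamini-Hochberg, and the code was tested on simulated data. The named regions were all common regions, the leading region of each gene by its −log10 q percentile within lists, averaged over target lists, and the region with most control lists. Other regions were named after their values were seen. The genes and lists were chosen with earlier results of these data known. Alternatives were a stricter threshold, summit windows, shortened lists, a 10 kb limit, leaving out each library and a replicate block. Python 3.11.15, NumPy 2.4.6 and pandas 2.3.3 were used.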

Additional observations from a re-analysis of the deposited data

How the results depend on the processing

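The 13 common regions at 4 genes, where 5.7% of all merged regions were common, were 9 at 4 genes with a −log10 q of at least 5 (6.07% of all regions), 14 at 4 with 200 bp summit windows (5.58%) and 10 at 3 within 10 kb of the gene, where Prdm14 had none. With each list shortened to its 2259 leading peaks they were 2 regions at 2 genes, Esrrb and Tfcp2l1 (2.73% of all regions), and the target minus control difference in peak number was 0 at Nr5a2, Prdm14, Gbx2 and Nr0b1, 0.75 at Tbx3, 1 at Tfcp2l1 and 3.25 at Esrrb. A replicate block, in which a region needed target peaks without control peaks within replicate number 1 alone or number 2 alone, is a looser rule by construction and gave 38 regions at 7 genes. The background share was 24.1% under it. Leaving out each library in turn gave 13 to 18 regions at 4 to 5 genes, while the share over all regions ran from 5.7% to 9.44%. When only Tet2KO lists served as controls, which was tried after the data had been seen, there were 19 at 5 genes (10.6% of all regions), and with the parental lists alone 13 at 4 (6.8%). All regions of the 7 genes were not counted anew where a setting changed the merging or the limit. Counts at these genes and background shares are therefore not directly comparable there. The difference in peak number stayed positive in 94 of the 98 values recomputed over 14 settings, and was 0 in the other 4. A gene with no peak left in any list would also give 0. The replicate block leaves the difference unchanged by construction. With 200 bp summit windows it equalled the main value at all 7 genes. Those repeated values add nothing to the count of positive ones. The size of the difference varied in other settings. Within 10 kb of the gene it was 2 at Prdm14 and 5.25 at Tbx3. With a −log10 q of at least 5 it was 1.75 at Nr5a2 and 0.25 at Gbx2. The lowest adjusted p among the 98 values was 0.257 in the exact permutation tests. Signs flipped within same-numbered pairs (the replicate block) gave p = 0.125 for Esrrb, Tfcp2l1, Tbx3, Nr5a2 and Prdm14, the smallest that this exact test can give. Same-numbered WT and Tet2KO lists did not deviate together (correlation -0.0801 over genes), while FLAG-TET2 and parental lists did (0.283). Across the antibodies the correlation was 0.185 for WT and FLAG-TET2 and 0.0198 for Tet2KO and parental lists. The labels do not say what a number marks. Depth is unknown, so a missing peak may be one not detected in a short list.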
